A study of Mus musculus with 3 samples.

Results

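The genes of the solute carrier (SLC) transporters were compared in liver between 3 diets. Members were the probe sets with a single gene symbol of the form Slc, family number, a and member number, or starting with Slco, without Slc10a1, Slc25a1, Slc25a20, Slc27a2 and Slc27a5. This gave 166 of 12488 probe sets on the array and 136 of 8251 genes, from 40 families when the 3 Slco genes are counted as 1 family. For the 26 genes with several probe sets, the brightest one by mean log2 signal stood for the gene.

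Solute carriers are membrane proteins that move small molecules, ions, vitamins and metals across the plasma membrane and the membranes of organelles, usually by exchange or down a gradient. Their genes are numbered by family, and members of a family often carry related cargo. In the liver they bring amino acids, bile acids and organic ions into hepatocytes from the blood, let glucose in and out, and shuttle metabolites across the inner mitochondrial membrane. Some amino acid transporters work only as pairs, a heavy chain of family 3 that reaches the membrane and a light chain of family 7 that carries the amino acid.

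The liver RNA came from apolipoprotein E-deficient male mice, homozygous knockouts on a mixed C57BL/6JxOLA129 background, which lack the ligand that clears remnant lipoproteins and develop high plasma cholesterol. At 3 months of age, 29 mice were put on 3 diets for 12 weeks. Control food went to 10 mice, c9,t11-CLA food to 10 and t10,c12-CLA food to 9, and RNA from each diet was hybridised to 1 array. Control food held 1.0% by weight of linoleic acid, and each of the other diets held the same amount of a conjugated linoleic acid (CLA), an isomer with neighbouring double bonds, either the c9,t11 or the t10,c12 form, with fat at 30% of energy in all diets. The sample labels call the diet western, whereas the design text describes semi-purified diets, and neither the pooling of animals nor the cell types in the tissue piece are stated.

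Each value is a MAS5 signal, a linear hybridisation intensity, and the trimmed mean of the signals was 1501 on each array. Where 3 signals follow each other without further words, they belong to the control, the c9,t11-CLA and the t10,c12-CLA array, in that order, and 2 log2 differences after the words "stood at" belong to c9,t11-CLA and t10,c12-CLA, each against control. The floor for a usable signal was 490.3, the median of all signals, and only genes above that floor on both arrays of a comparison count as measured in it. Counts are of genes at least 2-fold apart, or 1 on the log2 scale. Since no diet has a replicate array, no difference could be tested and no p-value is given. As a technical scale, pairs of probe sets for the same gene gave an SD of a single log2 difference of 0.49 for c9,t11-CLA against control, 0.40 for t10,c12-CLA against control and 0.50 for t10,c12-CLA against c9,t11-CLA, over 529, 566 and 553 pairs, and this spread leaves out the variation between mice. Signals of different probe sets are not compared with each other. The 2 comparisons with control share the control array.

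The tissue label was checked against defining markers. All 8 hepatocyte markers on the array, among them Alb and Ahsg, were above the floor on every array, whereas none of 4 bile duct and none of 5 kidney tubule markers was. Of other lists, 4 of 9 stellate cell, 4 of 7 endothelial, 2 of 4 erythroid, 2 of 4 intestinal (Fabp2 and Apoa4), 2 of 6 neutrophil (S100a8 and Elane), 1 of 4 adipocyte (Lep) and 1 of 4 lymphocyte markers (Ms4a1) were above the floor on all arrays. The hepatocyte markers had a median log2 difference from control of 0.72 on c9,t11-CLA, and of 0.02 on t10,c12-CLA. On c9,t11-CLA 3 of the 8 (Alb, Apoa2 and Hpd) were at least 2-fold higher, beside 2.98% of all measured genes, while Ttr differed by -0.94. Of 12 macrophage markers 11 were above the floor on each array, Marco being the exception. On c9,t11-CLA 5 of the 11 had a log2 difference from control above 0, beside 52.2% of all measured genes, and their median was -0.15. On t10,c12-CLA 10 of the 11 did, beside 49.1% of all measured genes, and their median was 0.38. The part of these markers in the differences of SLC genes was not tested. In bulk tissue, fewer cells of a type and less RNA per cell cannot be told apart.

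Of the 136 SLC genes, 66 were above the floor on all 3 arrays, 13 on 2 arrays, 11 on 1 array and 46 on none. The 66 genes had a median range of 0.50 log2 units over the 3 arrays, against 0.52 for the 4154 genes of the whole array that were above the floor throughout. A range of at least 1 log2 unit was seen in 8 of the 66, 12.1%, and in 11.5% of the 4154. Among SLC genes above 2 times the floor on all arrays, the smallest ranges were those of Slc4a2, an anion exchanger (0.05 log2 units), Slc25a11, the mitochondrial oxoglutarate carrier (0.13), Slc44a1, a choline transporter (0.14), Slc1a4, a neutral amino acid transporter (0.16), and Slc39a4, a zinc importer (0.18). Slc4a2 gave 1954, 1946 and 1894. The range of Slc39a4 comes from a probe set marked for possible cross-hybridisation. Its unmarked probe set was less steady, at 2707, 2581 and 4388. The control array held the lowest signal for 31 of the 66 genes, 47.0%, against 32.7% of all genes above the floor. After quantile normalization these values were 47.7% of 65 SLC genes and 31.2% of all genes, and with equal medians 27.7% of 65 and 21.7%. With equal medians the c9,t11-CLA array was most often the lowest, for 46.2% of SLC genes and 45.3% of all genes.

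**Figure D1:**
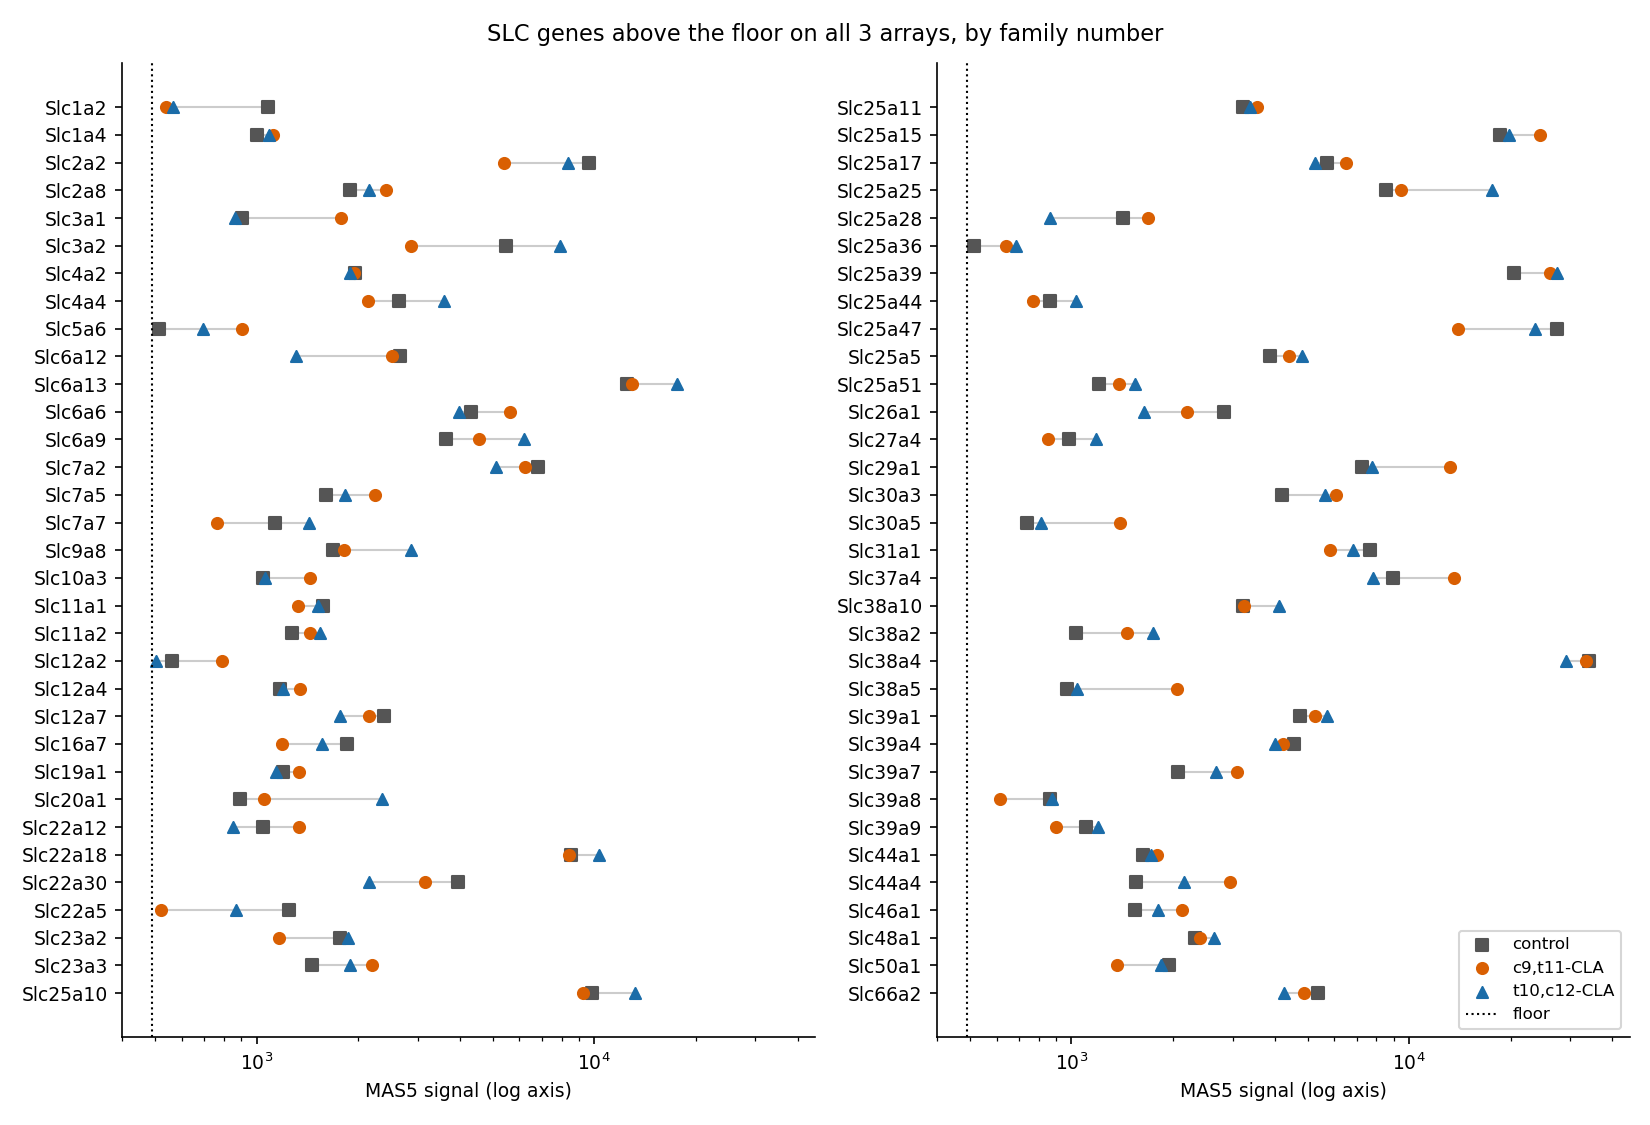
MAS5 signal (log axis) of the 66 SLC genes above the floor on all 3 arrays, with 1 point for each diet's array, ordered by family number and then by name; the dotted line is the floor of 490.3. Most genes sit close together over the 3 diets, as for Slc4a2 and Slc25a11, and 8 span at least 2-fold.

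On the c9,t11-CLA diet, 2 SLC genes were at least 2-fold lower and 2 at least 2-fold higher than on the control diet, of 71 measured. Lower were Slc22a5, the carnitine uptake transporter, 2.40-fold, and Slc1a2, a sodium-driven glutamate transporter, 2.01-fold. Higher were Slc38a5, a system N transporter for glutamine and related amino acids, 2.12-fold, and Slc12a5, a potassium-chloride cotransporter best known from neurons, 2.12-fold. The 4 genes were 5.63% of those measured, and the share over all 4324 measured genes of the array was 5.76%, made up of 2.98% higher and 2.78% lower. The SLC share was therefore close to the background and is not a result about transporters. The median log2 difference of the 71 genes was 0.15, with 43 above 0 and 28 below, beside 0.02 over all measured genes. Setting equal medians lowered the median of all genes to -0.16 and that of SLC genes to -0.04. Relative to all genes, the SLC median was 0.13 higher as reported, 0.12 higher with equal medians and 0.12 higher after quantile normalization. With equal medians, 0 SLC genes were 2-fold higher and 4 were 2-fold lower, 5.71% together, while 1.71% of all genes were higher and 5.4% lower, so the whole array moved the same way. The 4 were Slc1a2, Slc25a47 at -1.17, Slc3a2 at -1.13 and Slc2a2 at -1.04. After quantile normalization 1 SLC gene was higher and 1 lower, beside 2.42% and 3.02% of all genes. Under these 2 scalings, in that order, Slc38a5 differed by 0.89 and 1.02, Slc12a5 by 0.89 and 0.93 and Slc1a2 by -1.20 and -1.13. Slc22a5 was below the floor on the c9,t11-CLA array under both of these scalings, so that it was no longer measured.

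On the t10,c12-CLA diet, 2 of 71 measured SLC genes were at least 2-fold higher than on control and 1 was at least 2-fold lower. Higher were Slc20a1, a sodium-phosphate cotransporter, 2.63-fold, and Slc25a25, the calcium-sensitive ATP-magnesium/phosphate carrier of mitochondria, 2.06-fold. Slc6a12, the betaine and GABA transporter, was 2.03-fold lower. These 3 genes were 4.23% of the 71, against 3.92% of 4391 measured genes of the whole array, 2.05% higher and 1.87% lower. The median log2 difference was 0.10, with 44 genes above 0 and 27 below, beside -0.01 over all measured genes. With equal medians the SLC median was 0.01 and the counts were 1 higher and 2 lower, beside 1.59% and 2.65% of all genes, with Slc25a25 at 0.95 and Slc1a2 at -1.03.

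Between the isomers, at the same dose and time, 2 of 69 measured SLC genes had a signal on t10,c12-CLA at least 2-fold above that on c9,t11-CLA, and 1 was at least 2-fold below. The higher ones were Slc3a2, the heavy chain shared by several amino acid transporters, 2.77-fold, and Slc20a1, 2.24-fold. Slc3a1, the heavy chain of the cystine and basic amino acid transporter, was 2.06-fold lower. The share was 4.35%, against 6.02% of 4382 measured genes, 3.47% higher and 2.56% lower. The median log2 difference was -0.04 for the SLC genes and -0.05 for all measured genes, and both turned positive with equal medians, at 0.06 and 0.05. With equal medians or after quantile normalization, the counts were 3 higher and 0 lower, with Slc7a7 added at 1.01 and 1.00 and Slc3a1 at -0.937 and -0.996. Of all genes 4.77% were then higher and 1.59% lower with equal medians, and 3.8% and 2.28% after quantile normalization. Because each diet has a single array, no interval of a difference between isomers can be given.

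**Figure D2:**
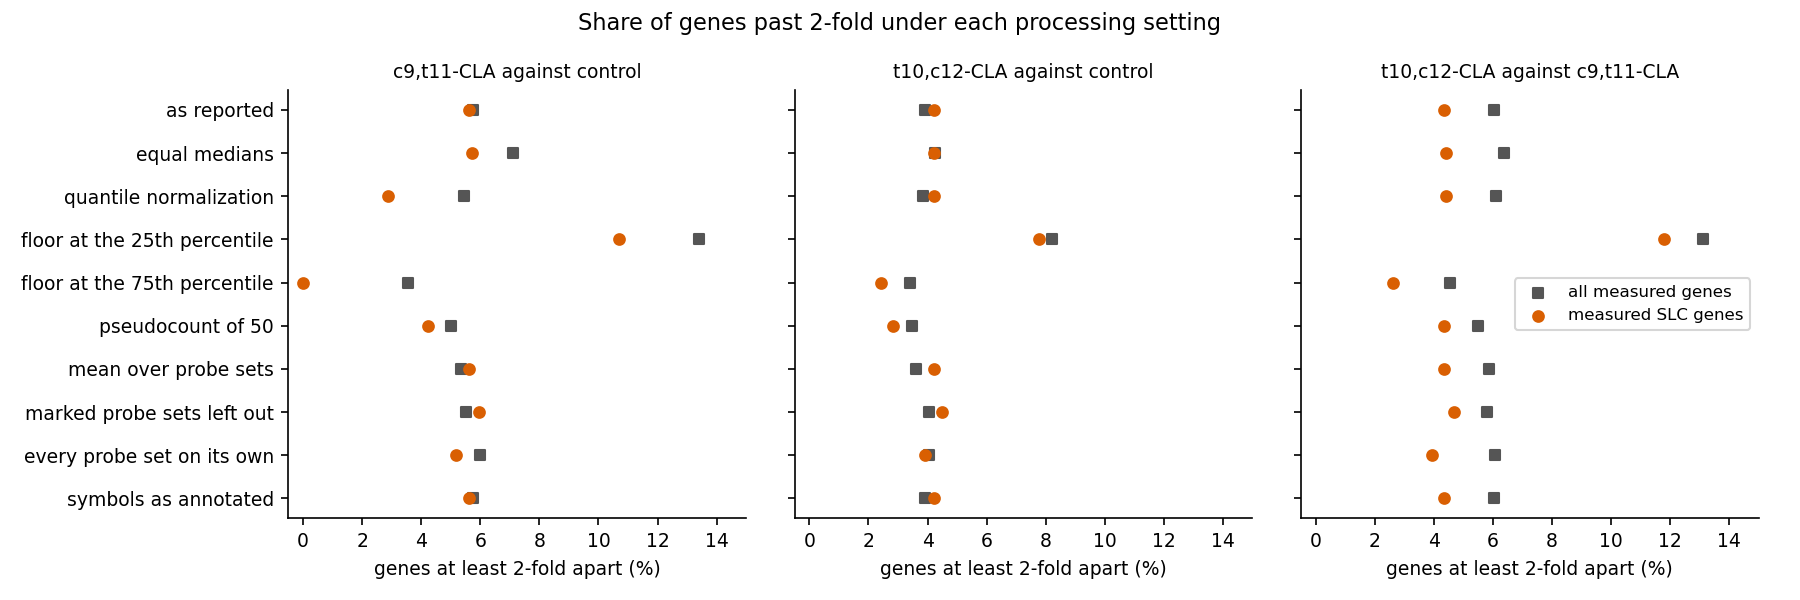
Percentage of measured SLC genes (orange) and of all measured genes (grey) at least 2-fold apart in each comparison, under each processing setting. As reported, the orange and grey points lie at 5.63% against 5.76%, 4.23% against 3.92% and 4.35% against 6.02%, and both move together with the floor.

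**Figure D3:**
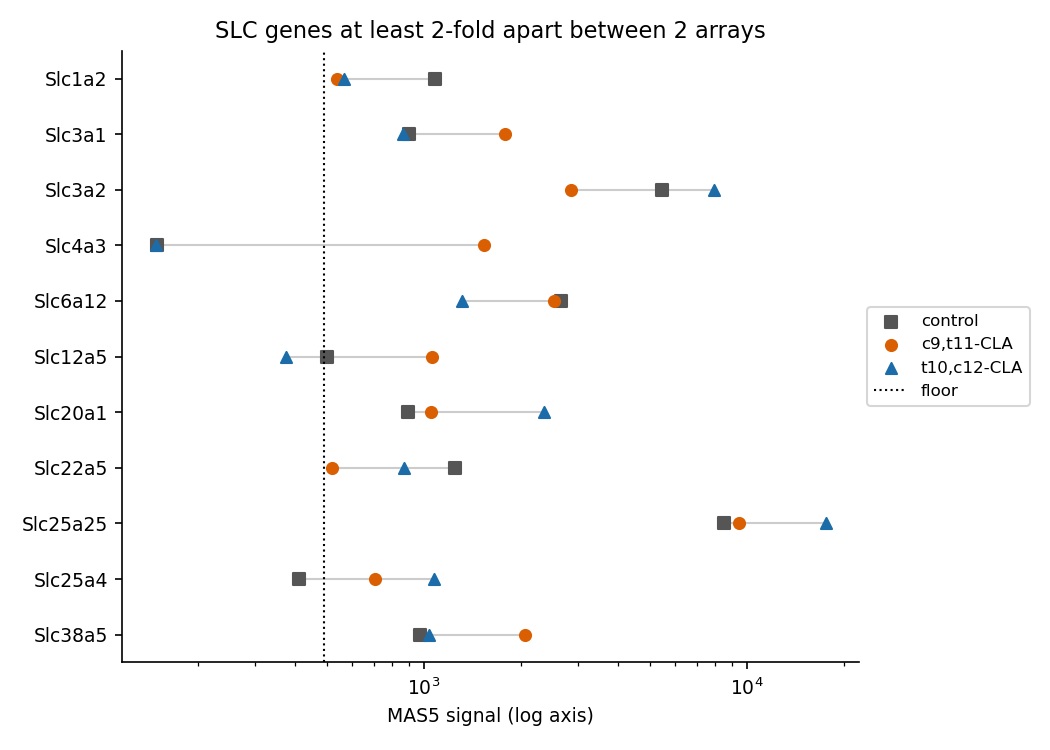
MAS5 signal (log axis) on each diet's array for the 11 SLC genes with a 2-fold or larger difference in any comparison, counting those given as a bound against the floor of 490.3 (dotted line). Slc20a1 and Slc25a25 stand high on t10,c12-CLA, Slc38a5, Slc3a1, Slc12a5 and Slc4a3 on c9,t11-CLA, and Slc1a2 and Slc22a5 on control.

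Where the dimmer array of a pair lay below the floor, a difference could be given only as a bound, and for 3 genes this bound reached 2-fold. Slc4a3, a chloride-bicarbonate exchanger, gave 149 on the control, 1539 on the c9,t11-CLA and 148 on the t10,c12-CLA array, which is at least 3.14-fold higher on c9,t11-CLA than on either other diet. Slc25a4, an adenine nucleotide translocase of mitochondria, gave 410.3 on the control, 708 on the c9,t11-CLA and 1077 on the t10,c12-CLA array. These signals put the t10,c12-CLA diet at least 2.20-fold above control. Slc12a5 gave 501 on the control, 1059 on the c9,t11-CLA and 374 on the t10,c12-CLA array, so that it was at least 2.16-fold lower on t10,c12-CLA than on c9,t11-CLA, while its control signal lay just above the floor. Bounds of at least 2-fold thus covered 1 of 17 SLC genes above the floor on a single array of the pair for c9,t11-CLA against control, 1 of 14 for t10,c12-CLA against control and 2 of 17 between the isomers. Over all such genes of the array the shares were 10.5%, 7.23% and 11.5%.

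Among the carriers of organic ions, carnitine and vitamin C, in families 17, 22 and 23 and Slco, the largest difference was that of Slc22a5. Carnitine is the molecule that carries long-chain acyl groups into mitochondria, and Slc22a5 brings it into the cell. Its signal was 1251 on the control, 521 on the c9,t11-CLA and 868 on the t10,c12-CLA array. Both CLA arrays were lower than control, with log2 differences of -1.26 for c9,t11-CLA and -0.53 for t10,c12-CLA, and the c9,t11-CLA value lay just above the floor. Its relatives Slc22a4 and Slc22a21 were below the floor on all arrays. The promoter window of the gene, 250 bases before to 50 after the start, from RefSeq on GRCm38.p6, minus strand at chr11:53891654-53891953, is shown because this gene had the largest difference from control on c9,t11-CLA among the measured SLC genes, with matches to the searched motifs in capitals.
Slc22a5: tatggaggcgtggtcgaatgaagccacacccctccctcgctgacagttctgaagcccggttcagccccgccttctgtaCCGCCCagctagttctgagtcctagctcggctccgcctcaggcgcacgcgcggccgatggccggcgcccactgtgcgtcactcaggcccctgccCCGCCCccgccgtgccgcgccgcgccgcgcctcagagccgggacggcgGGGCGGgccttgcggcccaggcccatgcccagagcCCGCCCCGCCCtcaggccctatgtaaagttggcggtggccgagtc
All capitals here belong to the GC box, GGGCGG on either strand, which matched 5 times. The motifs searched in these windows, on both strands, were the GC box GGGCGG, the CCAAT box spelled as in its name, the TATA box TATAAA, the E-box CACGTG, the cyclic AMP response element TGACGTCA and direct repeat 1, the element bound by PPAR receptors. A GC box was present in 62.2% of 156 windows of SLC genes and in 57.0% of 8412 windows of genes on the array, and no SLC window held the direct repeat, which 13 of all 32851 windows did. Windows were found for 108 of the 136 SLC genes. A match is a description of the letters and not a site.

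The other members of this group differed less. Slc22a30, an organic anion transporter, gave 3956, 3142 and 2158, and was lower on both CLA arrays. The identifier of its probe set carries a mark for possible cross-hybridisation. Slc22a12, the urate transporter, gave 1042, 1331 and 851, lowest on t10,c12-CLA. Slc23a2, a vitamin C transporter, gave 1770.4, 1165 and 1871 and was lowest on c9,t11-CLA, while Slc23a3 gave 1463, 2193 and 1889 and was lowest on control. The Slc23a3 probe set is also marked for possible cross-hybridisation. Its unmarked probe set gave 454, 1071 and 948, below the floor on control. Slc22a18 gave 8560.5, 8402 and 10293, with log2 differences of -0.03 and 0.27. Of 17 genes in this group, 6 were measured in the comparison of c9,t11-CLA with control, 2 above 0 and 4 below, with a median of -0.18 that was 0.06 after quantile normalization. In the comparison of t10,c12-CLA with control 8 were measured, 4 above and 4 below. Slc22a17 was below the floor on the control and t10,c12-CLA arrays and gave 566 on c9,t11-CLA, 1.15-fold the floor. All 3 Slco genes on the array with a single symbol, Slco3a1, Slco5a1 and Slco6c1, were below the floor on every array, as were Slc22a6, Slc23a1 and Slc17a1.

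The amino acid transporter families, 1, 3, 6, 7, 15, 32 and 38, made up 32 genes, of which 15 were above the floor on all arrays. Grouping was by family, so carriers of other cargo are counted too. Examples are Slc6a2 for noradrenaline, Slc6a4 for serotonin and Slc6a8 for creatine. For c9,t11-CLA against control 16 were measured, 10 above 0 and 6 below, 1 at least 2-fold higher and 1 lower, and the median of 0.11 became -0.09 with equal medians. For t10,c12-CLA against control the 16 measured had a median of 0.13, 10 above 0 and 6 below, with 1 gene 2-fold lower. Of all measured genes, 52.2% were above 0 for c9,t11-CLA and 49.1% for t10,c12-CLA, each against control. Between the isomers the median of 17 measured genes was -0.16, which was 0.00 after quantile normalization.

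The heavy chain Slc3a2 gave 5477 on the control, 2862 on the c9,t11-CLA and 7918 on the t10,c12-CLA array. The c9,t11-CLA array was the lowest and the t10,c12-CLA array the highest, with log2 differences from control of -0.94 and 0.53. Its promoter window, minus strand at chr19:8713848-8714147, is shown because the difference between the isomers, 1.47, was the largest among measured SLC genes.
Slc3a2: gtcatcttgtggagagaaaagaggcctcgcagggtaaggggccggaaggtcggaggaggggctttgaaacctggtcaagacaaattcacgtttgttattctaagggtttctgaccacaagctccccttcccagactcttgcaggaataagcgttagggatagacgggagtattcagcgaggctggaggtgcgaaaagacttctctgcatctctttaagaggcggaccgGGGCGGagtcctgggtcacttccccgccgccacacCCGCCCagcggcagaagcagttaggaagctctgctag
Capitals mark 2 GC boxes, and none of the other searched motifs was present. Light chains that pair with this heavy chain did not share its order over the arrays in every case. Slc7a7, a light chain for basic amino acids, gave 1137, 763 and 1429.9, in the same order as Slc3a2. Slc7a5, the light chain for large neutral amino acids, gave 1606, 2244 and 1831 and was highest on c9,t11-CLA. Slc7a6, Slc7a8 and Slc7a11 were below the floor on all arrays. The other heavy chain, Slc3a1, gave 903 on the control, 1779 on the c9,t11-CLA and 864 on the t10,c12-CLA array, high on c9,t11-CLA only. Its partner Slc7a9 gave 518, 706 and 445, also highest on c9,t11-CLA and below the floor on t10,c12-CLA.

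Slc38a5 gave 970.4 on the control, 2056 on the c9,t11-CLA and 1041 on the t10,c12-CLA array, high on c9,t11-CLA, with the other arrays close together. Slc38a2, a system A transporter that is induced when amino acids are scarce, gave 1032, 1460.5 and 1747, lowest on control. Its 3 other probe sets were below the floor on all arrays. Slc38a4, a system A transporter found mainly in liver, gave 34043, 33367 and 29232, and Slc38a10 gave 3220.5, 3237 and 4131. Slc1a2 gave 1084 on the control, 539.6 on the c9,t11-CLA and 566 on the t10,c12-CLA array, low on both CLA arrays, where it lay just above the floor, with log2 differences of -1.01 and -0.94. Slc1a4 stood at 0.16 and 0.12. In family 6, the transporters of GABA, glycine, betaine and taurine, Slc6a12 gave 2661 on the control, 2522 on the c9,t11-CLA and 1312 on the t10,c12-CLA array, low on t10,c12-CLA only. Slc6a9, the glycine transporter, gave 3636, 4564 and 6199, and Slc6a13, a GABA and taurine transporter, gave 12494, 12959 and 17603, both highest on t10,c12-CLA. Slc6a6, the taurine transporter, gave 4315, 5626 and 3984, highest on c9,t11-CLA. The cationic amino acid transporter Slc7a2 gave 6803, 6253 and 5133, with log2 differences of -0.12 and -0.41. Slc15a2, a peptide transporter, gave 188, 583 and 522, below the floor on control and just above it on both CLA arrays.

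Mitochondrial carriers, family 25, move nucleotides, phosphate, amino acids and metals across the inner membrane. Of 18 genes, 12 were above the floor on all arrays. Over all measured genes of the array, 52.2% were above 0 for c9,t11-CLA and 49.1% for t10,c12-CLA, each against control. For c9,t11-CLA against control, 12 were measured, 9 above 0 and 3 below, none of them 2-fold, with a median of 0.19 that became -0.01 with equal medians. For t10,c12-CLA against control, 13 were measured, 9 above 0 and 4 below, with a median of 0.26 and 1 gene at least 2-fold higher.

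That gene, Slc25a25, gave 8510.0 on the control, 9445 on the c9,t11-CLA and 17538 on the t10,c12-CLA array. The t10,c12-CLA signal stood apart from the other pair. The log2 differences were 0.15 for c9,t11-CLA and 1.04 for t10,c12-CLA against control, and 0.89 between the isomers. RefSeq lists 3 starts for this gene, and which of them the probe set reads is not known. The windows of starts 1 and 3, minus strand on GRCm38.p6 at chr2:32451421-32451720 and chr2:32424017-32424316, are shown because they differ in the searched motifs, and start 3 was chosen after its matches were seen.
Slc25a25, start 1: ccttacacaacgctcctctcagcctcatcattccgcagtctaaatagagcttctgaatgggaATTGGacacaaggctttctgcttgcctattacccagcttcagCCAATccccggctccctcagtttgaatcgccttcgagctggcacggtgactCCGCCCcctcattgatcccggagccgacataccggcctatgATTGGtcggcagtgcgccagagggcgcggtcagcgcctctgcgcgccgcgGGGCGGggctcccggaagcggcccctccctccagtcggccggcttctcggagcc
Slc25a25, start 3: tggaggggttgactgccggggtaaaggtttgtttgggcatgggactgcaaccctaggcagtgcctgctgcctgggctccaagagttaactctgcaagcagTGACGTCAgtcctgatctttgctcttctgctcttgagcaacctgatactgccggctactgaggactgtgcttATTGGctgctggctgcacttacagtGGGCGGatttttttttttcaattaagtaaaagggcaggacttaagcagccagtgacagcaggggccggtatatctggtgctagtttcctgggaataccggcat
Capitals at start 1 mark 3 CCAAT boxes and 2 GC boxes. At start 3 they mark a CCAAT box, a GC box and the whole cyclic AMP response element, TGACGTCA, a sequence found in 2.6% of windows of genes on the array and in 2 of the 156 SLC windows.

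Slc25a47, a carrier found mainly in liver mitochondria, gave 27328, 13906 and 23587, lowest on c9,t11-CLA with a log2 difference of -0.97, just short of 2-fold. Slc25a28, a mitochondrial iron importer, gave 1422, 1684 and 864, lowest on t10,c12-CLA. Slc25a15, the ornithine carrier, gave 18561, 24456 and 19794, Slc25a10, the dicarboxylate carrier, gave 9851, 9277 and 13195, and Slc25a11 stood at 0.13 and 0.06. Slc25a39, which carries glutathione into mitochondria, gave 20485, 26078 and 27342, lowest on control. Slc25a17, a peroxisomal member of the family, stood at 0.19 and -0.12. The adenine nucleotide translocase Slc25a5 gave 3864, 4396 and 4815, from a probe set marked for possible cross-hybridisation. Its other probe sets gave 806, 829 and 1086, also marked and highest on t10,c12-CLA, and 630.5, 676 and 175, unmarked and below the floor on t10,c12-CLA, so that they disagree in direction on that diet. Slc25a51, a carrier of NAD, stood at 0.20 and 0.36, Slc25a36 at 0.31 and 0.41, and Slc25a44 at -0.17 and 0.26. Slc25a3, the phosphate carrier used by all respiring cells, gave 596, 229.7 and 153, above the floor on control only. Slc25a14, an uncoupling protein relative, and Slc25a48 were below it on all arrays.

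Among sugar carriers, Slc2a2, the glucose transporter of hepatocytes, gave 9674, 5405 and 8386, lowest on c9,t11-CLA, with log2 differences of -0.84 and -0.21. Slc37a4 carries glucose 6-phosphate into the endoplasmic reticulum, where glucose is released from it, and gave 8978, 13615 and 7809.6, highest on c9,t11-CLA. These signals thus lay in opposite order for c9,t11-CLA, with log2 differences of -0.84 and 0.60, both below 2-fold. With equal medians Slc2a2 differed by -1.04, past 2-fold. That scaling lowers every c9,t11-CLA difference from control, so that of Slc37a4 was smaller and stayed below 2-fold. Slc2a8, an intracellular hexose transporter, gave 1890.2, 2421 and 2152. Slc50a1 stood at -0.51 and -0.08. Slc5a6, a member of the sodium-sugar family that carries biotin and pantothenate, gave 514, 903 and 694, lowest on control, where it lay just above the floor. Slc2a5, the fructose transporter, gave 517, 709 and 161 and was below the floor on t10,c12-CLA. Slc2a1 was above the floor on c9,t11-CLA only, at 522, and Slc2a4, the insulin-responsive transporter of muscle and fat, on none. Of 11 genes in these families, 6 were measured against control for each CLA diet. The medians were 0.41 for c9,t11-CLA, with 4 above 0 and 2 below, and 0.05 for t10,c12-CLA, with 3 on each side, which became -0.04 with equal medians.

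Transporters of phosphate and sulfate numbered 5, of which 2 were measured. Slc20a1 gave 896 on the control, 1049.7 on the c9,t11-CLA and 2355 on the t10,c12-CLA array. The t10,c12-CLA signal stood above the other pair, with log2 differences of 1.39 from control and 1.17 from c9,t11-CLA. The window at its first of 2 starts, plus strand at chr2:129198523-129198822, is shown because this gene had the largest difference from control on t10,c12-CLA among measured SLC genes.
Slc20a1, start 1: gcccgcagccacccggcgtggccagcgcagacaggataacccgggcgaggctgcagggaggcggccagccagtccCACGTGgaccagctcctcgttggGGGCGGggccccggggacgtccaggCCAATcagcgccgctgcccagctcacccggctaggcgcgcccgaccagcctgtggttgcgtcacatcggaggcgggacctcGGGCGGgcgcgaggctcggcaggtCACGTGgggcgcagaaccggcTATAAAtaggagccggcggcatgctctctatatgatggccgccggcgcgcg
Capitals mark 2 E-boxes, 2 GC boxes, a CCAAT box and a TATA box. E-boxes were found in 12.8% of SLC windows and in 9.55% of windows of genes on the array. Slc26a1, a sulfate and oxalate exchanger, gave 2830.0, 2194 and 1644, lower on both CLA arrays, with log2 differences of -0.37 and -0.78.

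Metal transporters, of families 11, 30, 31, 39 and 41, made up 16 genes, 10 of them above the floor on all arrays. No gene of this group was 2-fold apart in any comparison in which it was measured. For c9,t11-CLA the 11 measured had a median log2 difference of 0.15, which became -0.05 with equal medians, and for t10,c12-CLA the 10 measured had one of 0.13. Slc30a3, a zinc transporter of vesicles, gave 4206, 6077 and 5642, lowest on control. Slc39a7, which releases zinc from the endoplasmic reticulum, gave 2062, 3083 and 2688, lowest on control. Slc30a5, a zinc transporter of the secretory pathway, gave 736, 1395 and 814, highest on c9,t11-CLA, from a probe set marked for possible cross-hybridisation. Its other probe set, also marked, gave 249, 356 and 453, below the floor on all arrays. Slc30a1, the zinc exporter of the plasma membrane, was above the floor on c9,t11-CLA only, at 649. Slc39a8, an importer of zinc and manganese, gave 865, 613 and 877, lowest on c9,t11-CLA. Slc39a1 stood at 0.15 and 0.27. Slc31a1, the copper importer, gave 7646, 5834 and 6825, while its other probe set gave 4893, 6211 and 4658, of opposite sign for c9,t11-CLA. Slc11a1, a divalent metal transporter of macrophage phagosomes, gave 1577, 1325 and 1519, with a log2 difference of -0.05 on t10,c12-CLA. On that array 10 of 11 measured macrophage markers were above 0, with a median of 0.38, while 49.1% of all measured genes were above 0. Slc11a2 stood at 0.18 and 0.28, and another probe set of it had the opposite sign on both diets.

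Exchangers and cotransporters of cations, chloride and bicarbonate, of families 4, 8, 9 and 12, made up 14 genes. For c9,t11-CLA 7 were measured, with a median of 0.11 that became -0.09 with equal medians, and for t10,c12-CLA 6 were measured, with a median of -0.01. Apart from Slc12a5, the measured genes lay within 1 log2 unit, and Slc4a3 could be given only as a bound. Slc4a4, a sodium-bicarbonate cotransporter, gave 2640.5, 2144 and 3598, highest on t10,c12-CLA, as was Slc9a8, a sodium-proton exchanger, at 1679.9, 1812 and 2857. Slc12a2, the sodium-potassium-chloride cotransporter, gave 563, 792 and 502, just above the floor on t10,c12-CLA. Slc12a4 stood at 0.20 and 0.03, and Slc12a7 at -0.14 and -0.43. Slc4a1, the anion exchanger of red cells, was below the floor on all arrays.

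Of the remaining families, the 4 measured carriers of vitamins, folate and choline were all above 0 for c9,t11-CLA, with a median of 0.31. Over all measured genes, 52.2% were above 0 in that comparison. With equal medians the median was 0.11 and only 2 of the 4 were above 0. Slc44a4 gave 1555, 2939 and 2147, Slc46a1, the intestinal folate transporter, gave 1546, 2128 and 1807, while the log2 difference for c9,t11-CLA was 0.14 for Slc44a1 and 0.16 for Slc19a1, the reduced folate carrier. Between the isomers all 4 were below 0, with a median of -0.23, and 3 of 4 with equal medians, while 45.7% of all measured genes were above 0. The Slc19a1 values come from a probe set marked for possible cross-hybridisation. Its unmarked probe set gave 618, 358 and 584, below the floor on c9,t11-CLA and opposite in direction in both comparisons. Slc29a1, the equilibrative nucleoside transporter, gave 7228, 13213 and 7784, highest on c9,t11-CLA. Another of its probe sets gave 387, 734 and 522, also highest there. Slc16a7, a monocarboxylate transporter, gave 1856, 1190.2 and 1560.0, lowest on c9,t11-CLA, and Slc27a4, a fatty acid transport protein, gave 986, 849.9 and 1182. Of the bile acid transporter family, Slc10a3 gave 1046, 1444 and 1059, Slc10a6, a steroid sulfate transporter, gave 675, 646 and 476, and the ileal transporter Slc10a2 was below the floor on all arrays. Slc48a1, a haem transporter, stood at 0.05 and 0.19, and Slc66a2 at -0.13 and -0.33. Slc33a1, an acetyl-CoA transporter, was above the floor on c9,t11-CLA only, and Slc35a1, the CMP-sialic acid transporter, on control only. The probe set of Slc33a1 is marked for possible cross-hybridisation. None of the 3 family 35 genes could be measured in a comparison.

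**Figure D4:**
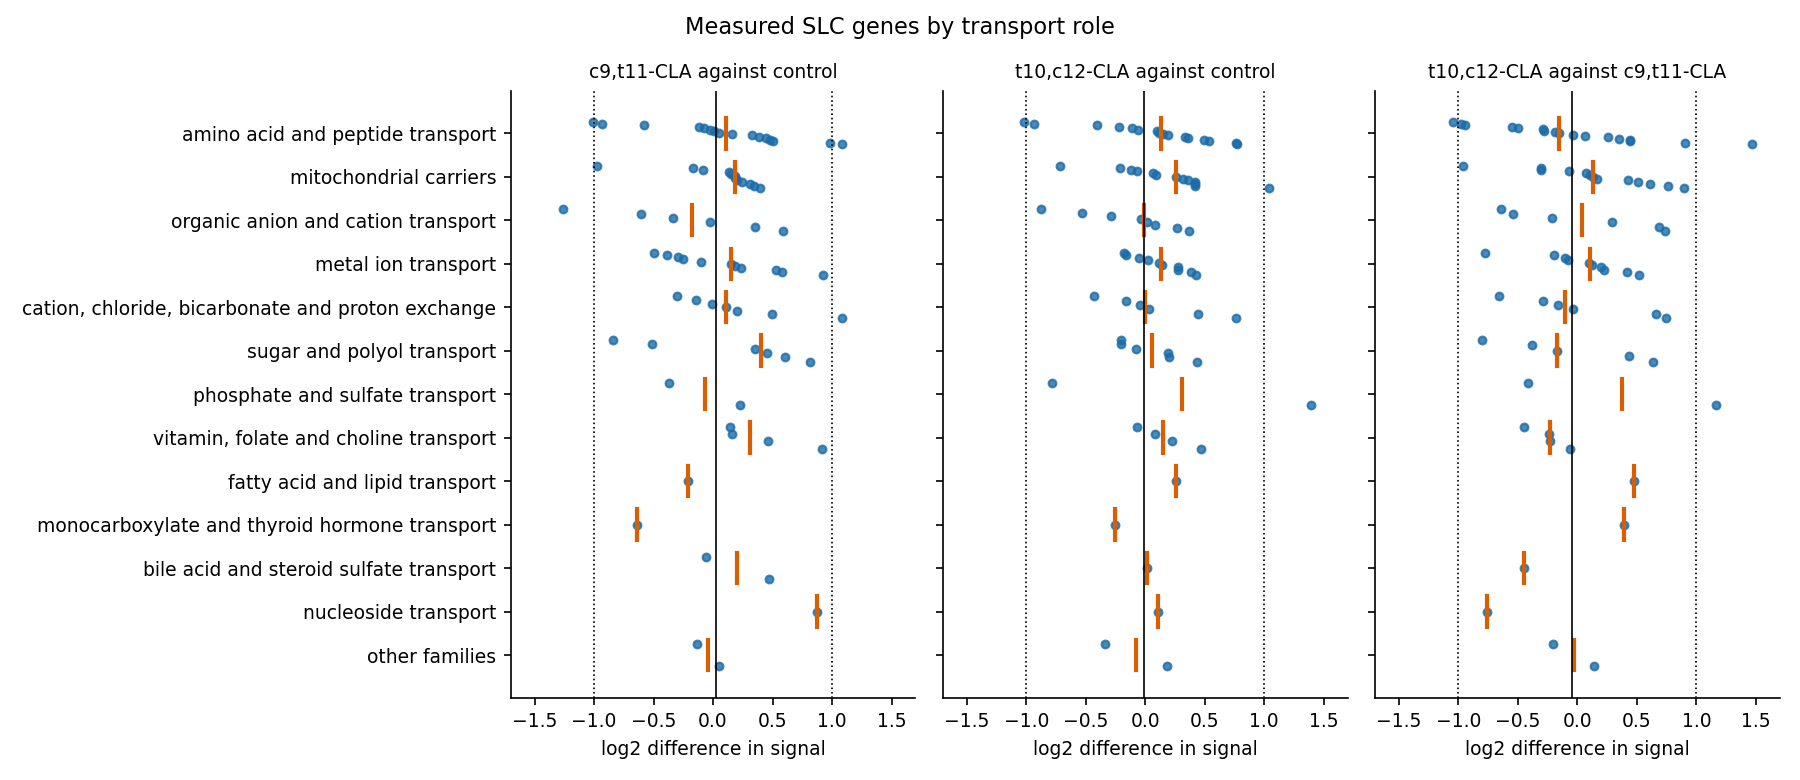
Log2 difference in signal for each measured SLC gene (points), grouped by transport role, in the 3 comparisons; orange bars are group medians, the solid line is the median of all measured genes and the dotted lines mark 2-fold. Few points lie beyond the dotted lines, and the medians of the 2 largest groups, amino acid transporters and mitochondrial carriers, were 0.11 and 0.19 for c9,t11-CLA and 0.13 and 0.26 for t10,c12-CLA, as reported; the c9,t11-CLA pair was -0.09 and -0.01 with equal medians.

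The remaining members gave few usable signals. Above the floor on 2 arrays were Slc6a2, the noradrenaline transporter (615, 386 and 682), Slc6a4, the serotonin transporter (416, 753 and 513), Slc2a3, a glucose transporter of neurons (527, 438 and 604), Slc22a2, an organic cation transporter of the kidney (495, 420.5 and 499.8), Slc22a23 (559, 403 and 544), Slc25a53 (528, 450.0 and 504) and Slc30a9 (661, 778 and 358). Above it on 1 array were Slc6a18 (507, 160.3 and 391), Slc25a45 (421, 337 and 693), Slc30a4 (568, 310.3 and 332) and Slc44a2 (358, 365 and 561). Their bounds against the floor were all below 2-fold. The probe set of Slc6a4 is marked for possible cross-hybridisation. Slc39a9 was above the floor throughout, at 1105, 900.2 and 1200.2. Further genes below the floor on all arrays included Slc1a1, Slc1a5, Slc1a6, Slc6a3, Slc6a8, Slc6a15, Slc7a1, Slc7a3 and Slc32a1 of the amino acid transporter families. Also below it were the ion cotransporters and exchangers Slc4a5, Slc4a8, Slc8a1, Slc12a1 and Slc12a3, the sugar transporters Slc5a1 and Slc5a11, and the metal transporters Slc39a3, Slc39a6 and Slc41a1. The same held for the phosphate and sulfate transporters Slc26a2, Slc34a1 and Slc34a2, the monocarboxylate transporters Slc16a1 and Slc16a8, the fatty acid transport proteins Slc27a1 and Slc27a3, and Slc18a3, Slc29a2, Slc35a2 and Slc35a4.

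A list of transporters with a known role in hepatocytes held 77 genes, of which 52 were on the array. Of 34 measured for c9,t11-CLA against control, 17 were above 0, 0 were at least 2-fold higher and 2 (Slc22a5 and Slc1a2) at least 2-fold lower, beside 2.98% and 2.78% of all measured genes. Of 34 measured for t10,c12-CLA, 19 were above 0, and 1 was 2-fold higher and 1 lower, beside 2.05% and 1.87%. Counts this small cannot be set apart from the background.

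Where a member had several probe sets above the floor, they did not always point the same way. For c9,t11-CLA against control 3 of 5 such genes had probe sets of a single sign, for t10,c12-CLA 4 of 6, and between the isomers 4 of 7. The exceptions were Slc11a2, Slc31a1, Slc39a4 and Slc25a51. For Slc39a4, the log2 difference for t10,c12-CLA was -0.18 in the brighter probe set and 0.70 in the other. Each of the 11 genes at least 2-fold apart had 1 probe set, so their differences have no check within the array.

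Other transport genes were set beside the SLC genes. Of 21 genes for ABC transporters, which pump with ATP, 16 were measured against control for each diet. Abcc3, an exporter of conjugates to the blood, gave 27162, 10881 and 19577, with a log2 difference of -1.32 for c9,t11-CLA. Abcc2, the exporter of conjugates to bile, gave 1404, 2057 and 2979, with 1.08 for t10,c12-CLA. Of 6 water channels 3 were measured, and Aqp8 gave 1600.2, 1637 and 5056, with 1.66 for t10,c12-CLA. None of 6 measured ion pumps was 2-fold apart in any comparison. Of the 5 SLC genes that the choice of members leaves out, the log2 differences for c9,t11-CLA were -0.87 for Slc10a1, -0.26 for Slc25a1, -1.32 for Slc25a20, 0.28 for Slc27a2 and -0.77 for Slc27a5, so 1 of 5 was past 2-fold. Of all measured genes, 5.76% were at least 2-fold apart for c9,t11-CLA against control, 3.92% for t10,c12-CLA against control and 6.02% between the isomers. The counts in these short lists cannot be set apart from those shares.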

How the data were processed

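The authors deposited a table of MAS5 signals, which is a linear intensity for each probe set, per the submitters' processing notes. The sources used here do not give its version. Detection calls and probe intensities were not used here. Gene symbols came from the platform annotation, updated through the Entrez identifier in a RefSeq gene table of GRCm38.p6, which changed no member. Of 12488 probe sets, 66 were array controls, 396 had several symbols and 1193 none, and these were left out; 10833 had 1.

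The floor, the 2-fold size and the representative probe set are given in the text above. Named genes were all measured SLC genes at least 2-fold apart or with a bound of at least 2-fold, the 10 largest differences in each direction from control per CLA diet, the 10 brightest and 5 steadiest genes, and the measured genes of a fixed list of transporters. The members and lists were chosen with earlier results of these data known. Further members of a group were named after their values were seen.

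Alternatives were equal medians, quantile normalization, floors at the 25th and 75th percentile, a pseudocount of 50, the mean over probe sets, leaving out marked probe sets, counting every probe set, and symbols as annotated. Precision is limited by the 3 arrays. Counting was tested on simulated data, with changes larger than 2-fold in genes well above the floor and noise below the technical SD. Calls near 2-fold or near the floor were not checked in this way. Calculations used Python 3.11.15, numpy 2.4.6, pandas 2.3.3, scipy 1.17.1 and matplotlib 3.10.9.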

Additional observations from a re-analysis of the deposited data

How the results depend on the processing

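No paired analysis was possible because each diet had 1 array. A count was taken as the same within 1.5 times, and a median when it moved by less than the technical SD divided by the square root of the number of genes. That margin only labels shifts between settings. It is not an error of a diet difference, since genes on the same array are not replicates of a diet. Over 9 alternatives, 54 counts and medians over all SLC genes stayed the same and 26 moved. Another 1, the c9,t11-CLA median under equal medians, reversed a value larger than that margin. Symbols as annotated could not move any of these values, since the update changed no member. The genes past 2-fold each had a single unmarked probe set, so the settings on probe sets could not remove them. The number that stayed the same is therefore not a measure of stability. The medians changed sign, whatever their size, in 3 of 27 cases. Under equal medians, the c9,t11-CLA counts were 0 higher and 4 lower with a median of -0.041, the t10,c12-CLA counts 1 higher and 2 lower with a median of 0.012, and between the isomers 0 were lower, with a median of 0.055. After quantile normalization the c9,t11-CLA counts were 1 higher and 1 lower and between the isomers 0 were lower. Lowering the floor to the 25th percentile gave 6 higher and 5 lower for c9,t11-CLA, 4 higher and 4 lower for t10,c12-CLA and 6 higher and 7 lower between the isomers, which is 10.7%, 7.77% and 11.8% of SLC genes beside 13.4%, 8.2% and 13.1% of all genes. At the 75th percentile they were 0 and 0, 1 and 0, and 1 and 0, with a c9,t11-CLA median of 0.081, since fewer genes were measured. A pseudocount of 50 left 1 gene lower for c9,t11-CLA and 0 for t10,c12-CLA. Without marked probe sets the median between the isomers was 0.068.

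Of 343 alternative medians of role groups, 35 changed sign. Under equal medians those of amino acid transporters (-0.09), cation and chloride carriers (-0.087), metal carriers (-0.046) and mitochondrial carriers (-0.0088) did so for c9,t11-CLA, and that of organic ion carriers (0.064) after quantile normalization. For amino acid transporters between the isomers the median was 0.0011 after quantile normalization and 0.080 at the 75th percentile floor. For phosphate and sulfate carriers it was -0.13 at the 25th and -0.42 at the 75th percentile floor between the isomers, and -0.78 at the 75th for t10,c12-CLA. Equal medians moves every log2 difference of a comparison by the same amount, as from 1.08 to 0.89 for Slc38a5 on c9,t11-CLA. A lower or higher floor changes which genes are measured. After quantile normalization 5 organic ion carriers were measured for c9,t11-CLA instead of 6, without Slc22a5. Beyond this, the cause was not tested. Signals near the floor limit what these arrays can show.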

Other observations

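Of the 46 SLC genes below the floor on all arrays, 26 (56.5%) had their lowest signal on the control array, beside 46.9% of the 2758 genes of the whole array that were below the floor throughout. The median signals of the 46 genes were 111 on control, 167 on c9,t11-CLA and 165 on t10,c12-CLA, and those of the 2758 were 118, 156 and 130.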
